A study of Mus musculus with 7 samples.

Results

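Granulocyte barcodes with a high share of Camp, Ngp and Ltf transcripts were examined in single-cell RNA libraries of MYC-driven mouse liver tumors. These 3 genes encode the cathelicidin precursor, neutrophilic granule protein and lactotransferrin, all of which are cargo of neutrophil granules. A barcode was kept where it had over 1000 unique molecular identifiers (UMIs, tags that count single RNA molecules), at most 20% mitochondrial UMIs, and at least 5% of its remaining UMIs from Camp, Ngp and Ltf together. Mitochondrial and Hba- and Hbb- haemoglobin genes were left out of that total, which is called the base below. In all, 1929 of 81779 tumor barcodes over the UMI and mitochondrial limits met the rule, and 100676 barcodes were over these limits in the 7 libraries of the series. The levels of Camp, Ngp and Ltf chose these cells and are therefore described without a test.

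The study profiled 4 tumors (NEJ634, NEJ687, NEJ709 and NEJ723) and 3 healthy livers by droplet sequencing of dissociated cells. Tumors came from ABC-Myc mice on a C57BL/6J background, which carry 1 Alb-Cre allele and 1 CAG-MYC allele. In these mice the albumin promoter drives Cre in hepatocytes, and Cre removes a floxed STOP cassette in front of human c-MYC. Whether the granulocyte barcodes carried the recombined transgene was not tested. Control livers came from littermates that lacked at least 1 of these transgenes. Ages were not given in the sources used here. The labels give the same model for all 7 libraries and assign none to a group, so each library is given apart, nothing was tested between groups, and the spread between libraries stands in for an error. The 4 tumor libraries held 76988802 to 132485391 UMIs each. The description of the library labelled NEJ709 names NEJ634, and which tumor it came from was not tested.

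Neutrophils mature in the bone marrow, and before birth in the fetal liver, through an ordered series of granule genes. Promyelocytes make primary granule proteins such as myeloperoxidase and neutrophil elastase and still divide. Myelocytes and metamyelocytes make the secondary granule proteins under the transcription factor C/EBPε, encoded by Cebpe. Band and segmented cells have left the cell cycle, make gelatinase and later surface receptors, and enter the blood.

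Genomic positions and the bases next to the gene starts are shown for the genes that chose the cells, for Fcnb (ficolin B, a lectin of granules) and for Mmp8 (neutrophil collagenase), because the levels of the last 2 genes separated cells within the set. Coordinates are those of GRCm38 with GENCODE M21, since the build of the count files was not given in the sources used here. Camp, Ngp and Ltf all lie on chromosome 9, at chr9:109847379-109849617 on the minus strand, chr9:110419747-110423012 on the plus strand and chr9:111019271-111042767 on the plus strand. Mmp8 is on the same chromosome, at chr9:7558456-7568485 on the plus strand, and Fcnb is at chr2:28076378-28084885 on the minus strand. Cebpe is at chr14:54710360-54712174 on the minus strand. The stretches printed are intergenic bases from RefSeq (GRCm38.p6), 5′ to 3′ on the strand of the gene, and end at or before the first annotated base. They are chr9:109849618-109849706 for Camp, chr9:110419558-110419746 for Ngp, chr9:111019071-111019270 for Ltf, chr2:28084886-28085085 for Fcnb and chr9:7558229-7558428 for Mmp8. Capitals mark the 8-letter C/EBP word TTGCNNAA or, on the other strand, TTNNGCAA.
Camp: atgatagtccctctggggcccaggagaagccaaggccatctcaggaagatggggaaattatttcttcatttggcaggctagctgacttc
Ngp: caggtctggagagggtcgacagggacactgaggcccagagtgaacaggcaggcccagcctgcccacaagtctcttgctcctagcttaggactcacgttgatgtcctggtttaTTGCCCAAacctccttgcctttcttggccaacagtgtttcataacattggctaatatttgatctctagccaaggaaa
Ltf: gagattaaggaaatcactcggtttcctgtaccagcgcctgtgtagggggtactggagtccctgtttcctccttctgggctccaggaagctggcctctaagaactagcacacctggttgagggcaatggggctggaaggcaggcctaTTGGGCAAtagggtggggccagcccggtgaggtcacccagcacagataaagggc
Fcnb: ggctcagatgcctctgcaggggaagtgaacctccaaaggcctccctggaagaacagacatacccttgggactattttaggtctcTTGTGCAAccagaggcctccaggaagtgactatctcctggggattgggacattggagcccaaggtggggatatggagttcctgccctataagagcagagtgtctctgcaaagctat
Mmp8: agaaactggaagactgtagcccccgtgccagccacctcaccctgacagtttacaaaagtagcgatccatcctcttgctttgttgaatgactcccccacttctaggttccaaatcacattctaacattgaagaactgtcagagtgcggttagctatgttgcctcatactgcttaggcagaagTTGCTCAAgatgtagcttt

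In the 250 bases before the RefSeq start, the word was found 2 times for Ngp and Fcnb, once for Ltf, Mmp8, Lcn2, Retnlg and Anxa1, and not for Camp, Chil3, Mpo or Elane, the 11 genes searched. Of 32851 promoters of 27025 genes, 9.56% held it at least once and 0.572% at least 2 times. A match describes letters only and is not evidence of binding.

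The share of barcodes that met the rule differed between tumors. It was 2.46% in NEJ634 (1001 of 40660, exact 95% Clopper-Pearson interval 2.31 to 2.62%), 6.43% in NEJ687 (484 of 7531, 5.88 to 7.0%), 0.526% in NEJ709 (113 of 21482, 0.434 to 0.632%) and 2.73% in NEJ723 (331 of 12106, 2.45 to 3.04%). Intervals here and below cover counting error only. NEJ687 was highest and NEJ709 lowest, with intervals that overlapped with no other library, while those of NEJ634 and NEJ723 overlapped. The denominator counts every barcode over the limits and is not a number of called cells. The shares depended on the limits, while NEJ687 stayed highest and NEJ709 lowest at 10% and at 3% for Camp, Ngp and Ltf. At 3%, NEJ634 lay above NEJ723. At 10% for Camp, Ngp and Ltf the share was 0.177%, 4.26%, 0.154% and 0.975% in NEJ634, NEJ687, NEJ709 and NEJ723, with NEJ634 near NEJ709, and at 3% it was 6.06%, 7.44%, 2.61% and 3.26%. With a mitochondrial limit of 10%, the share was 1.98% in NEJ709 and between 2.48 and 6.49% in the others.

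Members of NEJ634 stood apart in depth. Their median was 1790 UMIs and 749 genes, against 6215.5 UMIs and 1365.5 genes in NEJ687, 9136 UMIs and 1856 genes in NEJ709 and 7776 UMIs and 1743 genes in NEJ723. Their median share of Camp, Ngp and Ltf was 6.46%, close to the limit, against 11.4%, 9.06% and 9.02%. Just below the limit, at 4 to 5%, lay 559 barcodes in NEJ634, 36 in NEJ687, 55 in NEJ709 and 33 in NEJ723, and just above it, at 5 to 6%, lay 370, 27, 17 and 30. In ambient RNA, taken as the sum of barcodes ranked 45000 to 90000 by UMIs, which held 210 to 952 UMIs each in NEJ634 and 7 to 460 elsewhere, the 3 genes made up 0.489%, 0.211%, 1.30% and 0.113% of the base in the same order. In all, 34 member barcodes also passed the limits in another library, and 2 of them, 1 barcode present in both NEJ709 and NEJ723, were members in both.

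**Figure D1:**
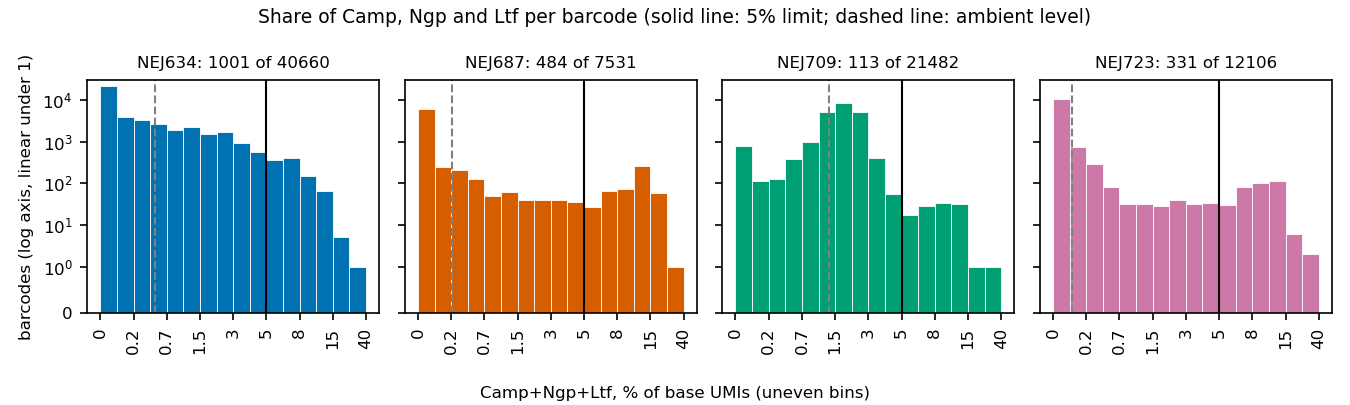
Number of barcodes over the UMI and mitochondrial limits (y axis, log scale) by their share of Camp, Ngp and Ltf among base UMIs (x axis, %, uneven bins) in each tumor library, with the 5% limit as a solid line and the ambient level as a dashed line. Above the limit, the tallest bin of NEJ687 and NEJ723 is 10 to 15%, with 261 and 110 barcodes. That bin is wider than the one at 8 to 10%, which holds 72 and 103. NEJ709 is tallest at 1.5 to 2%, with 8395 barcodes, and holds 17 at 5 to 6% and 34 at 8 to 10%. NEJ634 has no dip at the limit, with 559 barcodes at 4 to 5%, 370 at 5 to 6% and 66 at 10 to 15%.

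Markers that the rule did not use were in keeping with the immature neutrophil label in each library. Levels are UMIs summed over the members of a library per 1000000 base UMIs (CPM). The rule genes were at 43549, 64544, 53201 and 52010 CPM for Camp, 31065, 50828, 40008 and 39759 CPM for Ngp and 4131, 6692, 5500 and 4736 CPM for Ltf in NEJ634, NEJ687, NEJ709 and NEJ723, and are given as a description. Fcnb was at 685, 602, 663 and 445 CPM in NEJ634, NEJ687, NEJ709 and NEJ723, and in ambient RNA at 28.6, 8.56, 57.9 and 5.04 CPM. The lowest member level was thus above the highest ambient level. Cebpe was at 261, 522, 339 and 467 CPM, against 22.5, 13.01, 52.6 and 8.24 CPM in ambient RNA. The levels of Cebpe did not overlap with ambient RNA either, and NEJ634 was lowest. After each cell was thinned to 1000 UMIs, Cebpe was detected in 17.98 to 32.3% of members and in 0.222 to 3.88% of lymphocyte barcodes (those with at least 3 UMIs of 6 T and B cell genes), which should lack it. Fcnb was detected in 18.2 to 30.5% of members and in 0.222 to 3.10% of lymphocyte barcodes. The median depth of lymphocyte barcodes was 2858, 3533, 6482 and 3757 UMIs in NEJ634, NEJ687, NEJ709 and NEJ723, and without thinning Cebpe was detected in 36.1 to 88.8% of members and 1.18 to 17.8% of lymphocyte barcodes. Mpo did not pass the same comparison: after thinning it was detected in 9.79%, 1.86%, 7.08% and 2.11% of members and in 7.75%, 2.13%, 12.9% and 1.56% of lymphocyte barcodes. Its share was thus not clearly above that of lymphocyte barcodes. In NEJ709 76.5% of these barcodes also held Camp after thinning, so a share below theirs cannot show that members lacked Mpo.

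Hepatoblast, macrophage and endothelial markers were mostly below their ambient levels and highest in NEJ634. Their part in the results below was not tested. Of all 5940 genes with a mean of at least 20 CPM in members or ambient RNA, 2053 (34.6%) were below ambient RNA in 4 of 4 libraries by the exact interval of the member level. The summed level of 11 hepatoblast or tumor epithelium genes was 3878 CPM in the members of NEJ634 and 224 to 481 CPM in the other 3 libraries, with ambient levels of 4376 to 12020 CPM. Of these 11 genes, 9 were below the ambient level in all 4 libraries. The sum of 10 macrophage genes was 1054 CPM in NEJ634 and 76.9 to 178 CPM in the others, and all 10 were below ambient RNA in 4 of 4 libraries. Of 8 monocyte genes, 4 were below and 1 above ambient RNA in 4 of 4 libraries. The sum of these 8 genes was 546, 506, 477 and 565 CPM in the members of NEJ634, NEJ687, NEJ709 and NEJ723, above the ambient 291 and 271 CPM in NEJ687 and NEJ723 and below the ambient 588 and 760 CPM in the other 2 libraries. The sum of 10 erythroid genes, all below ambient RNA in 4 of 4 libraries, was highest in NEJ709 (762 CPM), and that of 7 B cell genes in NEJ723 (67.2 CPM). Cd3e (a T cell receptor subunit) was at 0 in the members of NEJ709 and NEJ723 and at 4.68 and 0.549 CPM in NEJ634 and NEJ687. C1qa (complement of macrophages) was at 132.5 CPM in NEJ634 and at 6.75 to 25.9 CPM elsewhere. Haemoglobin genes took 2.46 to 3.83% of all UMIs of the members. No doublet caller was run, and 14 to 20 members per library had over 20000 UMIs, against medians of 1790 to 9136.

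Secondary and tertiary granule genes beyond the 3 genes of the rule were detected broadly. Of 19 such genes, 17 were above ambient RNA in all 4 libraries, judged by the exact 95% Poisson interval of the member level, against 852 of the 5940 genes (14.3%). Lcn2 (lipocalin 2, which binds bacterial siderophores) was at 9147 CPM in NEJ634, 21461 in NEJ687, 13285 in NEJ709 and 15818 in NEJ723. Every library exceeded its ambient level, which was 253 to 2036 CPM. Chil3 (chitinase-like 3) was at 3154, 6645, 5299 and 6945 CPM. Lyz2 (lysozyme) was at 5389, 11346, 6253 and 4344 CPM. For Lcn2, Lyz2 and Chil3 the libraries differed by 2.20 to 2.61 times, and NEJ687 was highest for Lcn2 and Lyz2. Cd177, a surface glycoprotein of granule membranes, was steadier at 446, 609, 648 and 550 CPM. The calprotectin genes S100a8 and S100a9, which neutrophils hold in large amounts in the cytosol, together took a median of 16.3% of the base per member in NEJ634 and 28.1 to 31.3% in the other libraries.

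To place these cells among the other granulocytes, they were compared within each library with barcodes at the same UMI and mitochondrial limits. The earlier set had at least 1% of the base from Mpo, Elane, Prtn3 and Ctsg and under 5% from Camp, Ngp and Ltf, and numbered 966 barcodes in NEJ634, 101 in NEJ687, 38 in NEJ709 and 91 in NEJ723. A gene was called where its level differed at least 2-fold in the same direction in all 4 libraries, among genes with a mean of at least 20 CPM over the 4 libraries in either set. The genes that defined a set differ by construction.

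Against the earlier barcodes, the members carried more secondary and tertiary granule transcripts and fewer primary granule transcripts. Of 5821 genes, 274 were higher in the members (4.71%) and 931 were lower (16.0%). Of the 19 secondary and tertiary granule genes, 15 were higher and 0 were lower, with library medians of the log2 ratio between 2.22 and 4.04, and without NEJ634 18 were higher. Among genes higher in the members, Lcn2 had the largest smallest ratio, at 418, 389, 487 and 545 CPM in the earlier barcodes and with log2 ratios of 4.45 to 5.78. Chil3 had log2 ratios of 3.45 to 4.72, Anxa1 (annexin A1) of 2.41 to 3.25 and Cd177 of 3.96 to 6.61. Ly6g, a surface marker of the neutrophil lineage, was at 274, 577, 267 and 232 CPM in the members and at 14.5, 3.66, 5.15 and 0 CPM in the earlier barcodes. Among the genes that ranked highest were also AA467197 and Ifitm6, with log2 ratios of 3.96 to 7.06 and 3.64 to 6.01.

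Markers of other lineages also differed between these sets, and their part in the counts was not tested. Of 6 monocyte genes tested, Ccr2, F13a1, Ms4a6c and Fn1 were lower in the members, with library medians of -2.84 to -1.13 for the 6, and the sum of 8 monocyte genes was 1006, 1670, 1715 and 1213 CPM in the earlier barcodes of NEJ634, NEJ687, NEJ709 and NEJ723. The sum of 6 basophil and mast cell genes was 975 CPM in the earlier barcodes of NEJ687 and 14.998 to 89.3 CPM in those of the other libraries, against 1.65 to 34.2 CPM in the members.

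Not all granule genes separated the members from the earlier barcodes. Fcnb was at 307, 237, 541 and 212 CPM in the earlier barcodes, and its log2 ratio was 1.16, 1.34, 0.29 and 1.07 in NEJ634, NEJ687, NEJ709 and NEJ723. It missed the 2-fold limit in NEJ709 alone, where the exact interval of the log2 ratio was 0.10 to 0.49, and it was called when NEJ709 was left out. Hp (haptoglobin), Ltb4r1 (a leukotriene B4 receptor) and Stfa2 (stefin A2) likewise missed the 2-fold limit, in each case in NEJ634, where the log2 ratios were 0.90, 0.77 and 0.96. Of 9 primary granule genes tested, 8 were lower. Of these, Mpo, Elane, Prtn3 and Ctsg defined the earlier set, whereas Ms4a3 (log2 ratio -3.50 to -2.25), Ctsc (-3.50 to -1.01), Cst7 (-4.90 to -2.68) and Prss57 were not used to choose it. Serpinb1a, an inhibitor of neutrophil serine proteases, was the exception, at 380, 770, 549 and 672 CPM in the members and 356, 489, 505 and 533 CPM in the earlier barcodes.

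Of 19 late neutrophil genes, 8 were higher than in the earlier barcodes and 1, Srgn (serglycin), was lower. Retnlg (resistin-like gamma) was at 1495, 5095, 1489 and 3269 CPM in the members and at 376, 15.2, 156 and 23.6 CPM in the earlier barcodes. In NEJ709, however, the member level of Retnlg lay below the ambient level of 1964 CPM. Haemoglobin genes took 3.83% of the UMIs of these members and 33.5% of those of ambient RNA. How much of the Retnlg in members was free RNA was not tested. Mmp8 was at 192, 529, 426 and 337 CPM against 32.8, 2.61, 10.3 and 14.4 CPM, and it was above ambient RNA in all 4 libraries.

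Most ribosomal protein and nucleolar genes and some DNA replication genes were lower against the earlier barcodes, in numbers that depended on the total. Of 10 ribosomal protein genes 9 were lower and of 10 nucleolar and translation genes 8 were lower, against 16.0% of all genes tested. Of 19 S phase genes 6 were lower, among them Mcm2, Mcm3 and Mcm6 of the replicative helicase. Without NEJ634, 10 ribosomal protein and 12 S phase genes were lower. Of 26 G2 and M phase genes 0 were called, and Mki67 was at 450, 283, 560 and 307 CPM in the members and 325, 201, 374 and 214 CPM in the earlier barcodes. The median log2 ratio of all genes tested was -0.79 to -0.44 in the 4 libraries. With Camp, Ngp, Ltf, S100a8 and S100a9, abundant in the members, left out of the total (chosen after seeing the data) the median was 0.03 to 0.14, 570 genes were higher and 233 lower, and the higher share of calls went from 22.7% to 71.0%. Then 0 ribosomal protein, 0 S phase and 4 nucleolar and translation genes were called lower, while 18 of 19 secondary and tertiary granule genes were higher and 7 primary granule genes lower. Without Camp, Ngp and Ltf alone, 32.7% of calls were higher.

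The later granulocyte set was first defined by at least 3% of the base from S100a8 and S100a9, under 5% from Camp, Ngp and Ltf and under 1% from the 4 primary granule genes. That set took 94.5% of all barcodes over the limits in NEJ709, where S100a8 and S100a9 were 5.88% of ambient RNA, and 4.43 to 20.1% in the other libraries. Against it, 61 of 5438 genes were higher in the members (1.12%), led by Fcnb, Camp, Serpinb1a, Ngp, Ffar2, Cebpe, Hmgn2 and Serpine2, and 453 were lower (8.33%). Of 18 S phase and 25 G2 and M phase genes tested, 0 were called. Of 8 primary granule genes 1 was higher and 1 lower, and of 19 late neutrophil genes 4 were lower. The genes lower also included 8 of 8 hepatoblast or tumor epithelium genes and 6 of 10 macrophage genes tested. In view of these genes a stricter limit of 20% for S100a8 and S100a9 was added after seeing the data. The stricter set held 60 barcodes in NEJ634, 386 in NEJ687, 53 in NEJ709 and 166 in NEJ723.

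Against the stricter later set, the members had more early and cell cycle transcripts and fewer late neutrophil transcripts, while 10 of 19 secondary and tertiary granule genes were not called. Of 4640 genes, 494 were higher (10.6%) and 316 were lower (6.81%). Of 19 late neutrophil genes 16 were lower and 0 higher, and without NEJ634 also 16 were lower. Retnlg was at 28065, 45447, 34446 and 31120 CPM in the later barcodes, with log2 ratios of -4.53 to -3.16. Cxcr2, the chemokine receptor through which mature neutrophils leave the marrow, was at 38.9, 61.2, 59.4 and 106 CPM in the members and at 417, 404, 513 and 459 CPM in the later barcodes. Il1b, Csf3r (the receptor of granulocyte colony-stimulating factor), Fpr1 and Slpi were lower too. Wfdc21 was not called, with log2 ratios of -0.39 to 0.29. S100a6 and S100a11 were lower. S100a8 and S100a9, which helped to define the later set, had log2 ratios of -0.43 to 0.10. The genes with the largest differences on the lower side, which were picked after their values were seen, were Retnlg, Dhrs9, Gm16556, Il1f9, Clec4d, Cyp4f18, Arg2 and Mirt2.

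Against the first later set, 8 of 19 secondary and tertiary granule genes were higher in the members and 0 were lower. Against the stricter set, added after seeing the data, these genes split into those higher in the members and those higher in the later barcodes. Of 19 secondary and tertiary granule genes, Fcnb, Chil3, Cybb and Orm1 were higher and Mmp8, Mmp9, Adam8, Stfa2 and Arg2 were lower. Fcnb was at 25.4 CPM in the later barcodes of NEJ634, 1.71 in NEJ687 and 5.70 in NEJ723, and it had no UMI in NEJ709, which allows up to 10.8 CPM (3 UMIs). Fcnb was thus lower in the later barcodes than in any library's members. Chil3 was at 422, 328, 303 and 1722 CPM in the later barcodes, with log2 ratios of 2.90, 4.33, 4.12 and 2.01. Mmp8 was at 1672, 2009, 2265 and 1635 CPM in the later barcodes, with log2 ratios of -3.12 to -1.92, and Mmp9 (gelatinase B, a tertiary granule protease) had log2 ratios of -2.31 to -1.38. Lcn2, Cd177, Ly6g, Hp, Pglyrp1 and Anxa1 were not called. The log2 ratios of Cd177 were -0.16 to 0.40, those of Lcn2 0.20 to 1.11.

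**Figure D2:**
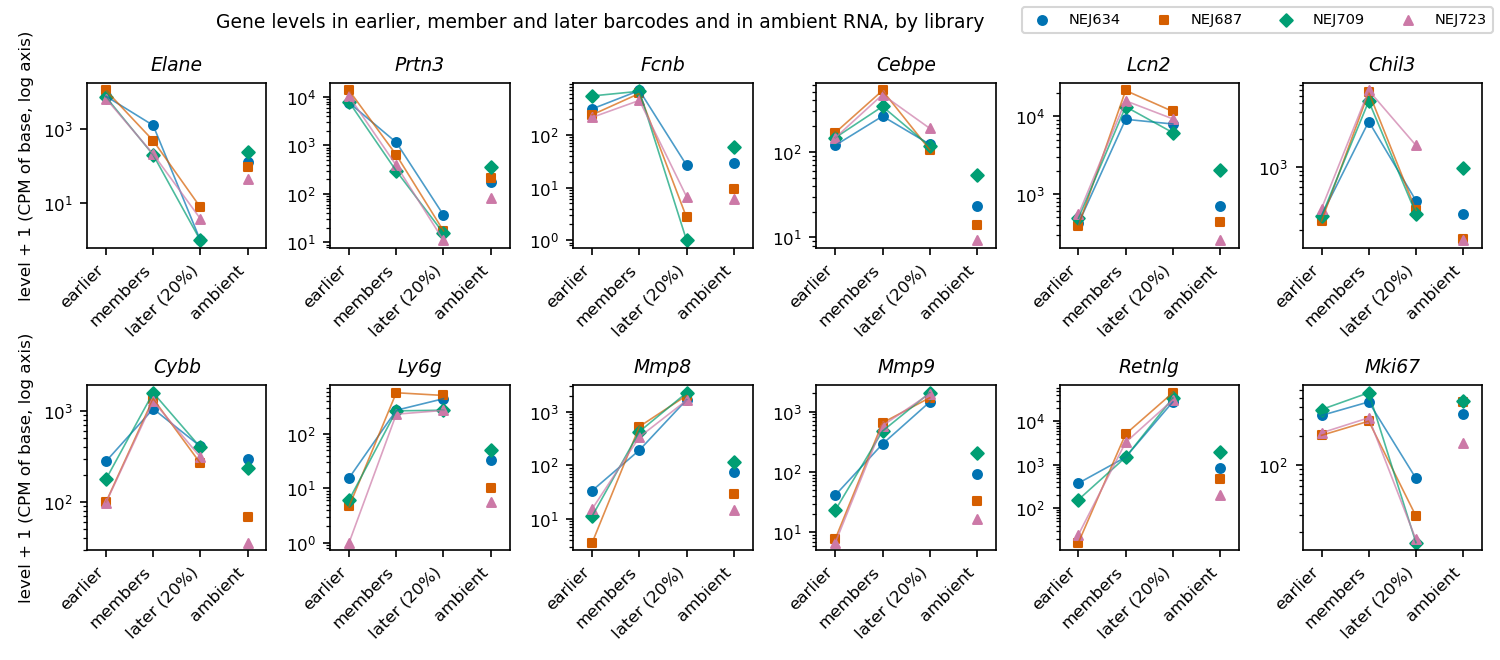
Level plus 1 of 12 genes (y axes, CPM of base, log scale) in the earlier barcodes, the members, the later barcodes of at least 20% S100a8 and S100a9 and ambient RNA, with 1 point per library and lines joining the sets of a library. From the earlier to the later barcodes, Elane and Prtn3, which helped to define both sets, have ever lower levels in each library. Mmp8, Mmp9 and Retnlg have ever higher levels in each library, and Cebpe, Chil3 and Cybb are highest in the members in each library.

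Primary granule and cell cycle genes were higher in the members than in the stricter later set. Of 8 primary granule genes tested, 7 were higher and 0 lower, the 4 genes that limited the later set among them. These include Mpo, whose share of members was not clearly above that of lymphocyte barcodes. The members had no limit for these 4 genes. At least 1% of the base came from them in 52, 9, 0 and 3 members of NEJ634, NEJ687, NEJ709 and NEJ723. Elane was at 1281, 496, 204 and 214 CPM in the members, but in NEJ709 this was below the ambient level of 247 CPM. Ms4a3, a gene of granulocyte and monocyte progenitors that defined no set, was at 180, 137, 138 and 124 CPM in the members, above ambient RNA in all 4 libraries, and at 10.2, 0, 0 and 4.27 CPM in the later barcodes. Of 18 S phase genes 17 were higher, and of 25 G2 and M phase genes 24 were higher, against 10.6% of all genes. In the members, 1 of 20 S phase and 1 of 26 G2 and M phase genes were above ambient RNA in 4 of 4 libraries. A level below ambient RNA does not show that the RNA was free, and how much of it was free was not tested. In the stricter later barcodes the sums were 123 to 274 CPM for the S phase and 163 to 590 CPM for the G2 and M phase genes. The S phase sum of the members was 1628, 1077, 1189 and 1037 CPM against 1548, 2118, 1786 and 1001 CPM in ambient RNA, and the G2 and M phase sum was 2858, 2265, 3398 and 2761 CPM against 2187, 2977, 3443 and 1569 CPM, so both sums were below ambient RNA in NEJ687 and NEJ709. Mki67 was at 71.2, 28.2, 14.4 and 15.7 CPM and Top2a at 30.5, 9.41, 7.22 and 17.1 CPM in the later barcodes, against 301, 195, 349 and 234 CPM of Top2a in the members. Of 10 ribosomal protein genes 6 were higher. Some genes on the lists of other cells were higher too, and their part in these counts was not tested. Rhd and Ermap of 7 erythroid genes and Nkg7 of 2 T and NK cell genes tested were called, while 0 of 6 macrophage genes were. The median log2 ratio was 1.39, 0.65, 1.64 and 0.55 for the erythroid and 1.52, 0.14, 1.89 and -0.21 for the macrophage genes, and Nkg7 had log2 ratios of 2.79 to 4.08. Nkg7 was also lower in the members than in the earlier granulocyte barcodes, with log2 ratios of -3.63 to -2.44. Which cells carried it was not tested.

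**Figure D3:**
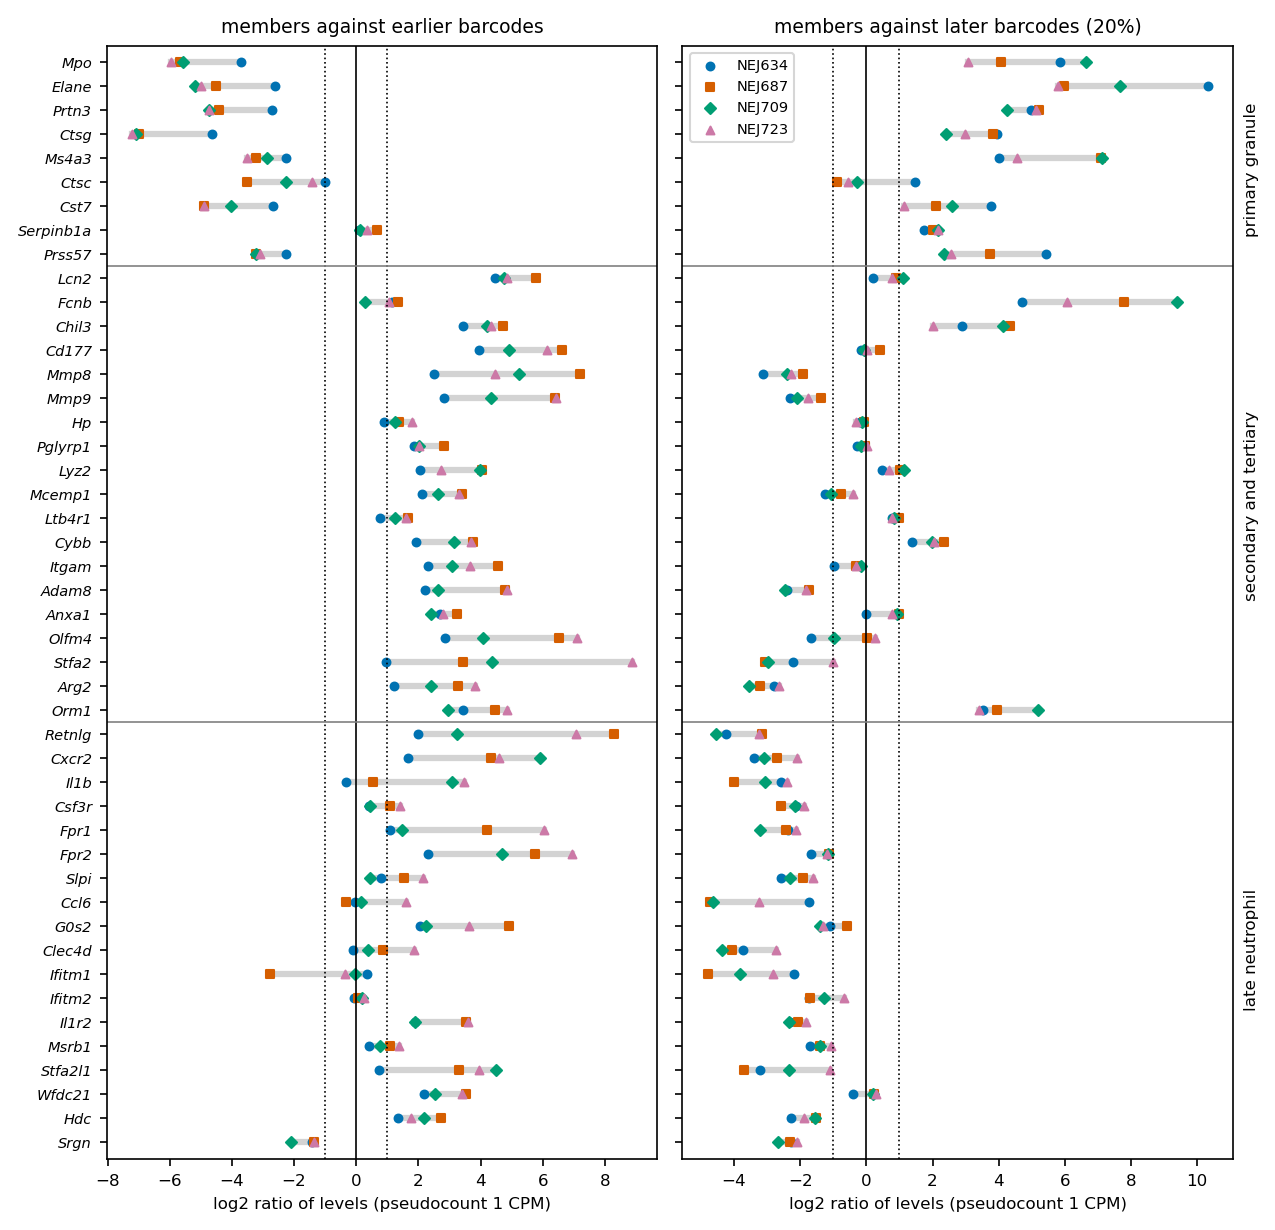
Log2 ratio of the level in the members over that in the earlier barcodes (left) or in the later barcodes of at least 20% S100a8 and S100a9 (right) for primary granule, secondary and tertiary granule and late neutrophil genes, with 1 point per library, a grey bar for the range and dotted lines at 2-fold. On the left, 15 of 19 secondary and tertiary granule genes lie right of the 2-fold line in all 4 libraries, and on the right, the late neutrophil genes plotted, other than G0s2, Ifitm2 and Wfdc21, lie left of the opposite 2-fold line.

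Among 20 granulocyte transcription factors, Cebpe was higher in the members than in both other sets, with log2 ratios of 1.13 to 1.67 against the earlier and 1.09 to 2.30 against the stricter later barcodes. Its level was 119 to 167 CPM in the earlier and 105 to 188 CPM in the later barcodes. Cebpa, which acts before the secondary granule stage, was lower than in the earlier barcodes (log2 ratio -3.79 to -1.05). Myb, a factor of dividing progenitors, was lower than in the earlier and higher than in the later barcodes, at 25.6, 15.1, 42.6 and 27.7 CPM. It exceeded ambient RNA in 1 library only. Cebpb was at 668, 866, 455 and 624 CPM and lower than in the later barcodes, with log2 ratios of -1.69 to -1.36. Cebpd was called in neither comparison and was at 260, 498, 280 and 335 CPM. Klf5 was higher than in the earlier barcodes, at 100 to 153 CPM.

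The NADPH oxidase is the enzyme that makes superoxide in phagocytes. All 7 of its listed genes were above ambient RNA in 4 of 4 libraries, against 14.3% of all genes. Cybb, its catalytic subunit gp91phox, was at 1053, 1357, 1581 and 1276 CPM in the members. It was higher than in the earlier barcodes (97.3 to 278 CPM, log2 ratio 1.92 to 3.77) and than in the stricter later barcodes (265 to 407 CPM, log2 ratio 1.37 to 2.35). The cytosolic subunit Ncf4 was higher than in the earlier barcodes only, by log2 ratios of 1.21 to 1.59. Hvcn1, a proton channel that works with the oxidase, was higher than in the later barcodes. Of 16 adhesion and homing receptors tested against the earlier barcodes, 4 were higher, against 4.71% of all genes. They were Itgam and Itgb2, the subunits of Mac-1, together with Cxcr2 and Ccr1. The progenitor genes Kit and Cd34 and the monocyte receptor Ccr2 were lower, 3 of 16, a share near the 16.0% of all genes. Against the stricter later barcodes 6 of 12 tested were lower, Cxcr2 and Ccr1 among them, and 0 higher, against 6.81% of all genes lower. Kit was at 8.78 to 25.6 CPM, and Cd34 at 0.675 to 1.80 CPM, in the members.

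Of 18 genes often measured in tumor-associated neutrophils and myeloid suppressor cells, 3 were above ambient RNA in all 4 libraries, a share near the 14.3% of all genes, and their sum was below the ambient sum in 3 of 4, at 1597, 1716, 1072 and 1944 CPM against 2548, 1937, 1750 and 1286 CPM. Arg1 (arginase 1) was at 37.4, 1.92, 3.34 and 4.72 CPM, below ambient RNA in every library. Nos2 had UMIs in NEJ687 only, at 0.274 CPM, and its 3-UMI limit in the other libraries was 1.01 to 2.51 CPM. Cd274 (PD-L1) was at 2.47 to 9.72 CPM and exceeded ambient RNA in 1 library. Against the earlier barcodes, 2 of 11 tested were higher and 0 lower, against 4.71% and 16.0% of all genes. The 2 were Trem1 and Osm, with log2 ratios of 1.59 to 3.65 and 1.80 to 3.65. The first later set gave 4 of 14 tested lower (Ptgs2, Ccl3, Ccl4 and Cxcl2) and 0 higher, against 8.33% and 1.12% of all genes. Against the stricter later barcodes, 5 of 12 tested were lower (Cd84, Ptgs2, Trem1, Ccl4 and Osm) and 0 higher, against 6.81% and 10.6% of all genes.

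The members themselves were not uniform. Each was thinned to 1000 UMIs, and the UMIs of 46 S phase and G2 and M phase genes were counted. Of 1929 members, 579 (30.02%) had 0 such UMIs, 430 (22.3%) had 1 or 2 and 920 (47.7%) had 3 or more. The share with 3 or more was 64.5% in NEJ634 (exact interval 61.5 to 67.5%), 26.9% in NEJ687 (23.0 to 31.0%), 40.7% in NEJ709 (31.6 to 50.4%) and 29.6% in NEJ723 (24.7 to 34.8%). Lymphocyte barcodes reached 54.1%, 25.1%, 46.8% and 22.7% in the same order, and ambient RNA itself held 3.10, 4.32, 2.88 and 2.10 cycle UMIs per 1000. The share alone therefore does not show how many members were cycling, and these ranges are cuts of a count, not cell types. In NEJ687, NEJ709 and NEJ723, members with 3 or more held more UMIs (medians 12105, 16530 and 13077) than members with 0 (5529.5, 8513 and 6437). In NEJ634 they held fewer, 1810.5 against 2555.

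Other genes, which neither the rule nor the cycle count used, differed between these ranges. Without the 46 genes of the cycle lists, 514 of 4732 genes were higher in members with 3 or more cycle UMIs (10.9%) and 178 were lower (3.76%). Cycle genes outside these lists stayed in the counts, and their levels are tied to the count that made the ranges. The genes with the largest differences, which were picked after their values were seen, were Ulbp1, Ncapd2, Pola1, Fbxo5, Hist1h2ae, Hist1h2ap, Rnaseh2b and Hist1h1d on the higher side, most of them chromosome, histone or replication genes. On the lower side they were Mmp8, Mmp9, Acvrl1, Retnlg, Thbs1, Bst1, Fpr1 and Timp2.

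Markers of other cells differed between the ranges in some libraries, and their part in the differences was not tested. The median log2 ratio was 1.64, 0.01, 1.81 and 0.84 for the erythroid, 2.09, 0.20, 0.38 and -0.20 for the macrophage and 0.83, -1.20, -0.22 and -1.21 for the hepatoblast genes, of which 7, 5 and 7 were tested and 0 called. Nkg7, the single gene tested of the T and NK cell list, was higher, with log2 ratios of 1.61, 2.21, 5.72 and 2.17. It was also higher in the earlier granulocyte barcodes than in the members, and which cells carried it was not tested.

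Early granule genes were higher in the range with cycle UMIs. Of 8 primary granule genes tested 6 were higher and 0 lower. Among the 6 was Mpo, whose share of members was not clearly above that of lymphocyte barcodes. Elane had a UMI in 26.2%, 8.26%, 14.2% and 7.25% of all members, so a minority of members carried its level. After thinning it had a UMI in 21.7%, 5.37%, 5.31% and 3.32% of members and 6.81%, 1.42%, 12.7% and 1.33% of lymphocyte barcodes. In NEJ709 the share was below that of lymphocyte barcodes, of which 76.5% held Camp. That comparison cannot show whether members of NEJ709 carried Elane. Elane was at 1444, 1000, 354 and 455 CPM in members with 3 or more and at 212, 1.93, 14.8 and 1.77 CPM in members with 0. The ratio was smallest in NEJ634, at 2.76 on the log2 scale with an exact interval of 2.45 to 3.10, and the ratios of NEJ687, NEJ709 and NEJ723 rested on few UMIs in members with 0, with intervals of 7.47 to 11.30, 3.33 to 6.21 and 6.14 to 11.05. Fcnb was at 878, 1095, 1007 and 767 CPM against 109, 188, 181 and 124 CPM, with log2 ratios of 3.0 (2.57 to 3.49), 2.53 (2.36 to 2.72), 2.47 (2.10 to 2.88) and 2.62 (2.37 to 2.89). The levels of the ranges did not overlap, and the 4 intervals overlapped with each other. Of 10 ribosomal protein genes 5 were higher.

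Of 19 secondary and tertiary granule genes, Mmp8, Mmp9, Adam8 and Arg2 were lower in the same range, Fcnb was higher and 14 were not called. Mmp8 was at 32.5, 43.5, 39.5 and 37.1 CPM in members with 3 or more cycle UMIs and at 918, 956, 1041 and 650 CPM in members with 0, with log2 ratios of -4.78, -4.43, -4.69 and -4.09. Mmp9 was at 85.8 to 101 CPM against 1024 to 1126 CPM, with log2 ratios of -3.70 to -3.41. Of 19 late neutrophil genes 9 were lower and 0 higher, and Retnlg had log2 ratios of -4.89 to -3.03. Ly6g was at 140, 259, 115 and 77.9 CPM against 781, 887, 510 and 420 CPM. Across the 4 libraries the levels of the ranges did not overlap for Mmp8, Mmp9, Retnlg and Ly6g.

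The genes of the rule itself, whose levels the 5% limit bounds, differed less between the ranges. The log2 ratio of Camp was 0.34, 0.50, 0.50 and 0.58, that of Ngp was -0.36, 0.07, -0.03 and 0.04 and that of Ltf was -1.10, -0.79, -1.06 and -0.97, and none was called. Cebpe was at 284, 606, 386 and 492 CPM against 191, 472, 273 and 448 CPM, with log2 ratios of 0.14 to 0.57, and Lcn2 had log2 ratios of -0.63 to -0.20. Leaving out any library changed the number of primary granule genes called higher in no case, and gave 9 to 12 late neutrophil genes lower.

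**Figure D4:**
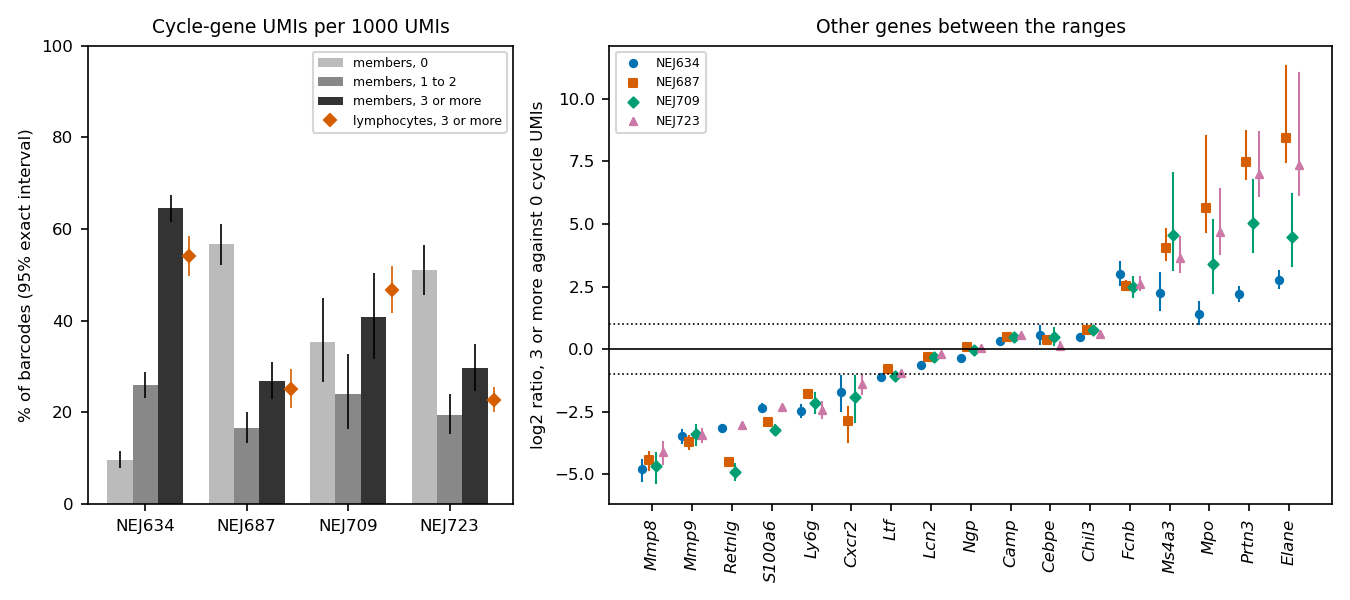
Left, percent of members with 0, 1 to 2 and 3 or more UMIs of 46 cell cycle genes after thinning to 1000 UMIs, with exact 95% intervals, and the same percent for lymphocyte barcodes at 3 or more. Right, log2 ratio of the level in members with 3 or more over members with 0 for genes outside the cycle lists, with exact intervals per library; Mmp8 lies between -4.78 and -4.09 and Fcnb between 2.47 and 3.0, whereas Camp lies between 0.34 and 0.58.

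Between tumors, most of the genes compared differed by under 10-fold in the members. Over 1335 genes with at least 100 CPM in the members of at least 1 library, the median ratio of the highest to the lowest library was 1.62, and 49 genes differed over 10-fold. The widest were H19, Ass1, Marco, Cd5l, Apoc4 and Hamp, genes of hepatocytes, the fetal liver or macrophages that were highest in NEJ634, where they were at 156 to 904 CPM in the members and 380 to 3318 CPM in ambient RNA. The next 2 were the stefin genes Stfa2 and Stfa3, which encode cysteine protease inhibitors of myeloid cells. Stfa2 was at 10.1, 9.88, 90.3 and 468 CPM in NEJ634, NEJ687, NEJ709 and NEJ723, and Stfa3 at 8.28, 14.8, 98.7 and 369 CPM. NEJ723 was highest for both, and its ambient levels were 11.3 and 3.36 CPM. Stfa2, Stfa3 and related genes are near-identical copies, and how the counting split their reads is not known here.

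Against all remaining barcodes of the same library, 308 of 6271 genes were higher in the members (4.91%) and 1401 were lower (22.3%). Besides Fcnb and Ngp, the genes that ranked highest were Abca13, Syne1, Inhba (the inhibin beta A subunit), Sept5, Ffar2 (a short-chain fatty acid receptor) and Itgb2l. Abca13 was at 88.9, 89.4, 114 and 82.3 CPM in the members and at 7.43, 2.36, 7.62 and 1.93 CPM in the rest, and Inhba at 58.3, 116, 121 and 107 CPM against 6.93, 2.01, 12.7 and 3.66 CPM. Of 19 secondary and tertiary granule genes 16 were higher. The genes lowest in the members included the endothelial genes Stab2, Gpihbp1, Eng and Ptprb. All 10 macrophage genes and 6 of 6 endothelial genes tested were lower. Without NEJ634 the endothelial count was 1, with the 20 CPM limit taken over the libraries left. In NEJ687, NEJ709 and NEJ723, Stab2 was at 23.2, 23.4 and 11.1 CPM in the rest, near that limit. Its log2 ratios there were -3.73, -3.19 and -2.85, and those of Eng were -4.50, -4.01 and -2.81.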

How the data were processed

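Single-cell RNA libraries of 7 mouse livers were used as unfiltered matrices of UMI counts, which the authors made with Cell Ranger and deposited without normalization. The submitters' processing notes name Cell Ranger 6.0 and the matrix headers Cell Ranger 4. The study's methods state that intronic reads were counted. Whether these matrices, whose headers name another version, include unspliced RNA was not tested. The series' design text speaks of nuclei and the sample labels of cells. The genome build was not given in the sources used here.

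UMIs were summed over the barcodes of a set and divided by the base. Ratios within a library used a pseudocount of 1 CPM and genes with a mean of at least 20 CPM in either set, and a call needed a 2-fold difference in 4 of 4 libraries. No p-value was computed, because no library has a group in the labels. The members and lists were chosen with earlier results of these data known. Named genes were list members, the 8 genes with the largest smallest ratio in each direction of each planned comparison and the 8 that varied most between libraries. Of 256 listed genes, 255 were found, and 32158 of 32285 gene IDs matched GENCODE M21. Some list members enter the counts and are not reported here by name. Alternatives changed the limits, totals, pseudocount and libraries. The steps were tested on simulated data and run in Python 3.11.15 with numpy 2.4.6, scipy 1.17.1, pandas 2.3.3 and matplotlib 3.10.9.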

Additional observations from a re-analysis of the deposited data

Results flagged for a closer look

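Barcodes below the UMI limit also met the 5% limit for Camp, Ngp and Ltf. Among barcodes with over 500 and at most 1000 UMIs, which no comparison used, there were 293 of 26399 in NEJ634, 19 of 1599 in NEJ687, 9 of 4707 in NEJ709 and 17 of 11489 in NEJ723. They are listed only because no comparison used them: the 5% limit itself fixed their share, and in NEJ634 barcodes of 210 to 952 UMIs, which overlap this range, made up the ambient RNA.

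NEJ638, NEJ654 and NEJ677 are the libraries outside the 4 tumors, and the labels give them the same model as the tumor libraries and no group. In NEJ638, 26 of 6377 barcodes met the rule (0.408%, exact interval 0.267 to 0.597%), while NEJ654 had 0 of 5674 (exact upper limit 0.065%) and NEJ677 had 1 of 6846. In the 26 barcodes Camp was at 37972 CPM, with an ambient level of 470 CPM, Lcn2 was at 11063 CPM, Fcnb at 575 CPM and Cebpe at 308 CPM. None of the 26 barcodes passed the limits in another library.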

How the results depend on the processing

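The number of members was 3979 at a limit of 3% and 544 at 10% for Camp, Ngp and Ltf, and 1290 to 2267 under the other alternatives. Members of NEJ634 numbered 2463 at 3%, 72 at 10% and 406 with the UMI limit doubled, and those of NEJ709 561 at 3% and 33 at 10%.

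Counts of genes higher and lower moved with the total, the pseudocount and the fold. Without Camp, Ngp, Ltf, S100a8 and S100a9 in the total they were 570 and 233 against the earlier barcodes, 177 and 140 against the later, 801 higher against the later barcodes of at least 20% S100a8 and S100a9, and 653 and 617 against the remaining barcodes. The share of calls that were higher then went from 11.9% to 55.8% against the later, from 61.0% to 76.2% against the stricter later and from 18.02% to 51.4% against the remaining barcodes. With a pseudocount of 10 CPM, 478 were lower against the earlier, 37 higher and 137 lower against the later, 293 higher against the stricter later and 741 lower against the remaining barcodes. At 4-fold the counts were 62 and 36, 3 and 3, 128 and 48, and 62 and 75 in the same order of comparisons. With no level filter, 831 were lower against the later, 955 higher against the stricter later and 2916 lower against the remaining barcodes. Against the later set, 220 were lower with its limit at 6%, and 94 higher with under 2% Camp, Ngp and Ltf.

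Leaving out 1 library in turn gave 274 to 493 genes higher and 936 to 1792 lower against the earlier barcodes, 67 to 91 and 471 to 636 against the later, 514 to 703 and 337 to 423 against the stricter later, 309 to 404 and 1442 to 1887 against the remaining barcodes, and 550 to 673 and 197 to 237 between the cycle ranges. Against the earlier barcodes both highest counts were those without NEJ634. The share of members with 3 or more cycle UMIs was 29.5 to 54.7%, lowest without NEJ634, and it was 28.9% with 5 or more and 56.7% with 2 or more cycle UMIs in place of 3. Of 375 log2 ratios of single genes under alternatives 364 kept their call, 10 lost it and 1, Fcnb against the earlier barcodes without NEJ709, gained it. No direction was reversed, and the causes of these changes were not tested. All comparisons were paired within a library, and no test across the 4 libraries was run, since the labels put them in no group.

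Depth per member was lowest in NEJ634, with a median of 1790 UMIs, while 3 UMIs over all members corresponded to 0.823 to 2.51 CPM, the most in NEJ709. In the stricter later set 3 UMIs corresponded to 2.57 to 15.2 CPM, the most in NEJ634.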
